A study of Rattus norvegicus with 38 samples.

Results

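Gene expression in peripheral blood mononuclear cells (PBMC) of allograft recipients was examined for what remained of the rejection contrast once the difference between the rat strains was taken into account. All 20 PBMC arrays of the series entered the comparison, out of 38 arrays in all. The other 18 arrays measured hearts. DA (Dark Agouti) hearts had been placed in the abdomen of recipients, beside the native heart, and the recipients were sampled on day 6. The groups were BN (Brown Norway) allograft recipients, whose graft came from another strain (n = 5), DA isograft recipients, whose graft came from their own strain (n = 9), untransplanted BN rats (n = 3) and untransplanted DA rats (n = 3). Each array held the blood of 1 rat, and recipients are named QR with a number below, untransplanted rats by strain and number. All allograft recipients were BN and all isograft recipients were DA, so the recipients differed in strain and in graft response together. The untransplanted rats gave the strain difference alone. The measure used throughout is therefore an interaction ratio, the BN to DA ratio in the recipients divided by the BN to DA ratio in the untransplanted rats, given on the log2 scale.

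The design limits what this ratio can separate. Recipients and untransplanted rats had been processed as separate batches, and each strain difference lies within 1 of them. A batch effect therefore cancels only where it is equal for both strains on the log2 scale. A batch effect that varies with signal level or RNA quality cannot be separated from a response to rejection by this ratio. A response to rejection and a response to surgery that differs between the strains cannot be told apart, since no BN rat received a BN heart.

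Acute rejection of a transplanted heart is driven by T cells of the recipient that recognise donor MHC molecules, either on donor cells or as peptides on their own antigen presenting cells. Activated T cells release interferon gamma, which induces MHC genes and chemokines, and cytotoxic lymphocytes kill graft cells with granzymes and perforin. PBMC from a density gradient are mostly lymphocytes and monocytes, and may carry platelets, immature red cells and a few granulocytes. In such bulk samples, fewer cells of a type and less RNA per cell cannot be told apart.

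Markers of the cell types in PBMC were present, since all 24 T cell and 16 B cell genes, 38 of 40 monocyte and macrophage genes and 22 of 22 platelet genes measured passed the signal criterion given next, against 12 of 25 neutrophil genes and 4 of 18 genes of basophils, eosinophils and mast cells. Red cell genes were also present, with 34 of 37 past it. Levels are given as multiples of the median signal of the same array. Of 31042 probesets that are not controls, 17419 reached that median in at least 50% of the arrays of some group. Only these could be called. The threshold was an adjusted p (Benjamini-Hochberg, limma) of at most 0.10, with the adjustment over all 31042. The median signal was 27.4 to 36.8 in allograft recipients, 26.6 to 34.4 in isograft recipients, 22.2 to 23.7 in untransplanted BN and 20.2 to 21.2 in untransplanted DA rats. The ratio of 3' to 5' beta-actin signal, which increases as RNA is degraded, was 1.31 to 2.13 and 1.37 to 2.75 in the recipient groups and 1.14 to 1.18 and 1.08 to 1.14 in the untransplanted groups. The recipients did not overlap with the untransplanted rats in median signal or in the beta-actin ratio. They did overlap in the same ratio for GAPDH. It was 0.986 to 1.33 in allograft recipients, 1.04 to 1.98 in isograft recipients, 1.01 to 1.35 in untransplanted BN and 1.01 to 1.06 in untransplanted DA rats. The part of RNA quality in the results below was tested only with the beta-actin ratio as a covariate. That covariate, added after the data were seen, left 59 calls, 48 of them among those given here.

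The interaction was called for 63 probesets, 0.362% of those past the signal criterion. Of these, the BN to DA ratio was higher in recipients than in untransplanted rats for 39 (0.224%) and lower for 24 (0.138%). A ratio of 3-fold was reached by 38 of the 63 (0.218%). At an unadjusted p of 0.01 or less with a ratio of 3 or more, 99 probesets passed (0.568%), and 32 of these had no call in either strain difference. The strain difference itself was called for 325 probesets in untransplanted rats (2.01%) and for 323 in recipients (1.99%). Across the 17419 probesets the correlation of both differences was 0.69, a description across probesets that share no arrays between the axes.

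**Figure D1:**
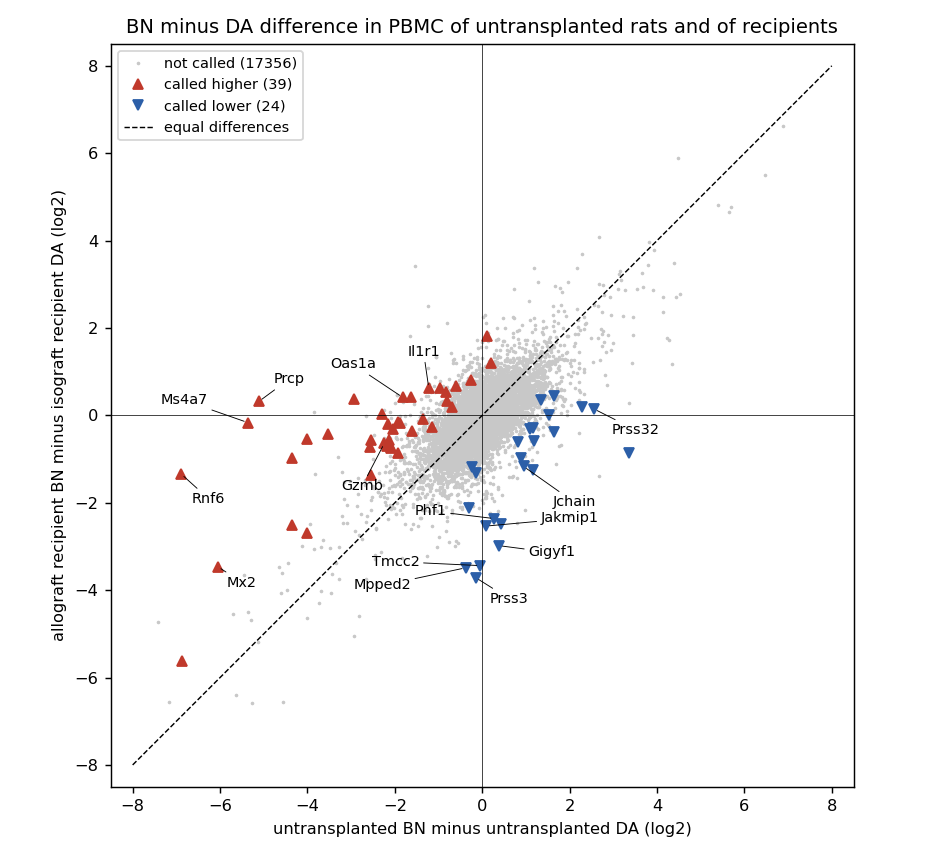
Each point is a probeset past the signal criterion, with the log2 difference of BN minus DA in untransplanted rats on the x axis and in graft recipients on the y axis. The dashed line marks equal differences. The 39 higher calls (red, pointing up) lie above it and mostly far to the left, where untransplanted BN rats were low, while the 24 lower calls (blue, pointing down) lie below it, mostly at an untransplanted difference near or above 0.

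Higher and lower calls came about in different ways, as the plot of both strain differences shows. Of the 39 higher calls, 35 had the larger difference in the untransplanted rats. In 31 of the 39, untransplanted DA rats had the highest of the 4 group means, and in 31 untransplanted BN rats had the lowest. Allograft recipients had the highest mean in 7. The median absolute log2 difference was 2.09 in untransplanted rats and 0.57 in recipients. For most higher calls, then, a large deficit of untransplanted BN rats was smaller or missing between the recipient groups. Of the 24 lower calls, 13 had their lowest mean in the allograft recipients and 9 in untransplanted DA rats. For these the medians were 0.92 in untransplanted rats and 1.07 in recipients.

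The array values entered the calls, so the following overlaps are descriptions. Allograft and isograft recipients did not overlap for 13 of the 39 higher and 10 of the 24 lower calls, against 9.24% of all probesets past the criterion. Untransplanted BN and DA rats did not overlap for 37 of the 39 and 15 of the 24, against 40.3%. Of the calls, 30 higher and 17 lower ones had 1 gene symbol, covering 28 and 16 genes. Of these 44 genes, 23 had another probeset past the criterion. Of those 34 other probesets, 30 had the same sign and 3 were called.

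Interferon-induced genes called higher were Oas1a, Mx2 and Ifitm3. Oas1a, an oligoadenylate synthetase that activates RNA decay in virus-infected cells, measured 7.05, 3.91, 6.21, 4.89 and 4.92 array medians in the 5 allograft recipients. The isograft recipients ranged from 2.40 to 5.5 with a median of 4.15. Untransplanted BN rats measured 3.23, 3.08 and 3.30, and untransplanted DA rats 13.1, 8.38 and 13.2. Untransplanted BN lay below untransplanted DA without overlap, whereas the recipient groups overlapped. The log2 strain difference was −1.82 in untransplanted rats and 0.41 in recipients, an interaction ratio of 4.70-fold (log2 2.23, SE 0.33, limma adjusted p = 0.00561). It stayed called without any single array.

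Mx2, an interferon-induced GTPase with antiviral activity, kept a strain difference in both settings. Its level was 0.653, 0.480, 0.359, 0.478 and 0.555 in allograft recipients and 2.52 to 7.60 with a median of 6.22 in isograft recipients. It was 0.226, 0.427 and 0.217 in untransplanted BN and 22.4, 13.8 and 19.5 in untransplanted DA rats. All BN animals lay below all DA animals, and within DA the isograft recipients lay below the untransplanted rats. The difference of −6.05 in untransplanted rats was −3.46 in recipients (log2 ratio 2.58, SE 0.43, limma adjusted p = 0.0176). Under quantile normalization the ratio was 1.69, with a limma adjusted p of 0.0976, and a second Mx2 probeset had 0.88 (limma adjusted p = 0.465).

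Ifitm3, a membrane protein that blocks the entry of viruses, measured 1.23, 1.33, 0.874, 1.54 and 1.57 in allograft recipients and 1.02 to 1.86 with a median of 1.57 in isograft recipients. Untransplanted BN rats had 0.458, 0.747 and 0.468, and untransplanted DA rats 2.69, 1.59 and 1.89. The recipients overlapped, and the untransplanted groups did not overlap. The log2 ratio was 1.71 (SE 0.34, limma adjusted p = 0.0481), and the call was lost without untransplanted BN1 (0.115), BN3 (0.148) or DA1 (0.141), under quantile normalization (1.36, 0.163) and with the mean level of red cell genes as a covariate (1.38, 0.212). Ifit3, a member of the family that binds viral RNA, had 1.64 (SE 0.46) and did not pass (limma adjusted p = 0.238). Of the 47 interferon-induced genes measured, 40 had a positive log2 ratio and 7 a negative one. The median ratio was 0.30, against 0.01 over all 14217 genes. The list's mean log2 level was 2.85 in allograft recipients, the lowest of the 4 groups. It was 3.41 in isograft recipients, 3.10 in untransplanted BN and 4.03 in untransplanted DA rats. The positive median thus did not rest on a raised list level in allograft recipients. Oas1a and Ifitm3 were the members called among the brightest probesets, none was called lower (0.127% and 0.0844% of all genes were called in each direction), and 9 were higher and 1 lower at an unadjusted p under 0.05, against 2.64% and 2.98% of all genes.

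The promoters of the called genes were searched for the core of the interferon-stimulated response element, which the ISGF3 and IRF factors bind, written as GAAA, any 2 bases and GAAA. Windows ran from 250 bases before to 50 after the RefSeq gene start (GRCr8 build), both strands were searched, and overlapping copies were counted. The motif was in 3.77% of all 27457 windows and in 66.0% of those of the interferon-induced list (31 of 47). It was in 4 of the 20 windows found for genes called higher (20%) and in 0 of 14 for those called lower. The windows of Oas1a, Ifitm3 and Sppl2a are shown because each holds the motif, in capitals, close to the gene start. Mx2, the other interferon-induced gene called higher, was not among the windows searched. They are read from chr12:41330216-41330515 on the plus strand, chr1:205541709-205542008 on the minus strand and chr3:134646703-134647002 on the minus strand. In Oas1a a pair of overlapping copies begins at −41 and −35 relative to the start, in Ifitm3 a copy begins at −44 and in Sppl2a at −8.
Oas1a: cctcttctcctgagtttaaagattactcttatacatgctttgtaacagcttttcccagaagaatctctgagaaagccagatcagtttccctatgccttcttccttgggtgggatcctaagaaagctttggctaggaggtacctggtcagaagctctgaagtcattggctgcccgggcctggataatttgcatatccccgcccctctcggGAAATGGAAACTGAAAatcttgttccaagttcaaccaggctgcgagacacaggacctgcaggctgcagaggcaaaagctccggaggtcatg
Ifitm3: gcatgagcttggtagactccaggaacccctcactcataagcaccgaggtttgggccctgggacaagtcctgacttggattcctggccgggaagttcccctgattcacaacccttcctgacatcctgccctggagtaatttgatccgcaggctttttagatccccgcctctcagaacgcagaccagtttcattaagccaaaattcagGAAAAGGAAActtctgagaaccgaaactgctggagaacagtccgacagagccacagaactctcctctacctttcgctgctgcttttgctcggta
Sppl2a: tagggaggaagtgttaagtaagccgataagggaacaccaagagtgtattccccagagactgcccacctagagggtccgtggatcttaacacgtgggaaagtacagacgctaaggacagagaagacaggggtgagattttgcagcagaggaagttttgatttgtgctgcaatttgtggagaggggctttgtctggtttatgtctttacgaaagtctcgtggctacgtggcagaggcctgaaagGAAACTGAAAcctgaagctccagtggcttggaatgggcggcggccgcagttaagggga
A match of letters describes these windows and does not show that a factor was bound.

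**Figure D2:**
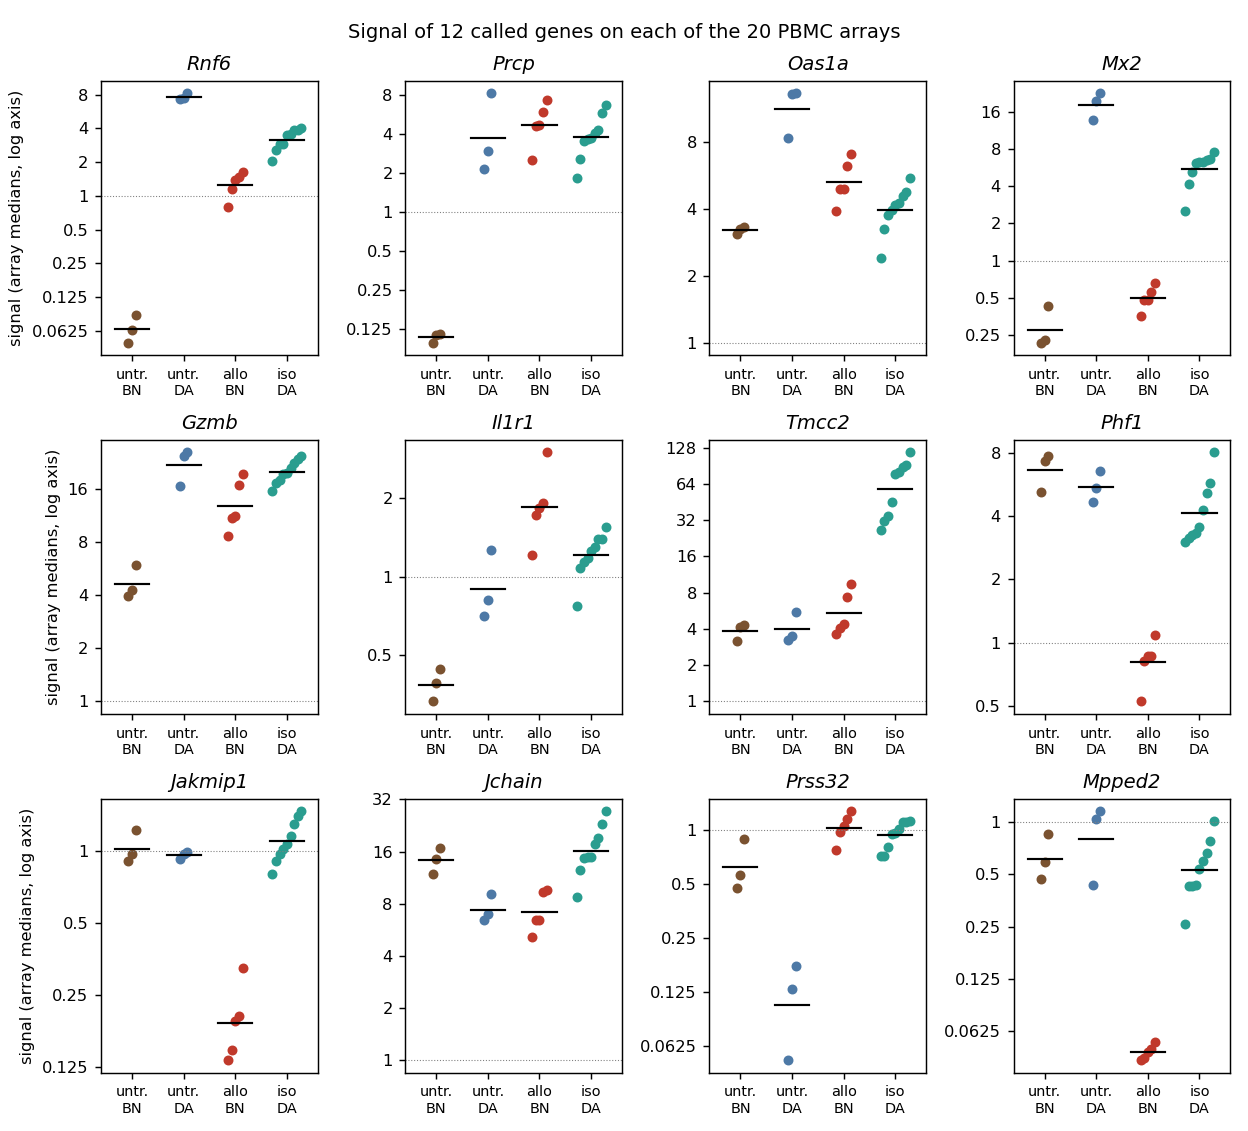
Signal in array medians, on a log axis, of 12 genes called in the interaction, with 1 point per array, sorted by value within each of the 4 groups, a line at the group's mean of log2 values and a dotted line at the array median. Rnf6, Prcp, Oas1a, Mx2 and Gzmb have their gap between untransplanted BN and untransplanted DA rats, Jakmip1, Phf1 and Mpped2 have low allograft recipients, and Tmcc2 has high isograft recipients.

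Antigen presentation was represented by 3 called genes. RT1-Ba, the alpha chain of a rat MHC class II molecule, measured 13.9, 11.6, 15.2, 13.7 and 17.6 in allograft recipients and 13.4 to 36.1 with a median of 22.6 in isograft recipients. Untransplanted BN rats had 9.89, 13.5 and 11.6, and untransplanted DA rats 84.9, 73.3 and 52.9. The level in untransplanted DA rats was above that of every other animal. On the log2 scale the ratio was 1.85 (SE 0.41, limma adjusted p = 0.0859), and a second probeset gave 1.84 (0.0752). The 2 remaining RT1-Ba probesets had BN above DA in both settings, by 6.48 and 5.70 in untransplanted rats and by 5.5 and 4.78 in recipients, with ratios of −0.97 and −0.92. Its probesets thus disagreed on which strain was higher, and the gene is known to differ in sequence between the RT1 haplotypes of rat strains. The call was lost without any of 15 of the 20 arrays, with limma adjusted p up to 0.207, and with the red cell (0.112) or the actin covariate (0.106).

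Ctsl, a lysosomal protease that trims the invariant chain of MHC class II, had a log2 ratio of 1.08 (SE 0.24, limma adjusted p = 0.0862) and lost its call without any of 13 arrays (up to 0.241) and with the actin covariate (0.101). Sppl2a, the intramembrane protease that removes the last fragment of that chain, had 2.06 (SE 0.43, limma adjusted p = 0.0650). Its other 3 probesets had 0.32 to 0.71 and were not called. The call for Sppl2a was lost without allograft recipient QR4 or any of 5 untransplanted rats, BN1, BN2, BN3, DA1 and DA2 (up to 0.179). Over the 12 MHC class II and processing genes measured, 10 ratios were positive, 2 were called higher (0.127% of all genes) and the median was 0.24. Among 23 MHC class I and peptide loading genes, 18 were positive, none was called and the median was 0.17. At an unadjusted p under 0.05, 1 was lower (2.98% of all genes).

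Among genes of cytotoxic lymphocytes, Gzmb was called higher. Gzmb is granzyme B, the serine protease that triggers death of target cells. It measured 19.4, 11.2, 16.9, 11 and 8.65 in allograft recipients, 15.6 to 24.7 with a median of 19.7 in isograft recipients, 3.96, 5.93 and 4.28 in untransplanted BN and 24.8, 16.6 and 25.9 in untransplanted DA rats. Untransplanted BN rats were below every other animal, and allograft recipients reached into the range of the DA groups. The log2 difference of BN minus DA was −2.24 in untransplanted rats and −0.64 in recipients (ratio 1.60, SE 0.33, limma adjusted p = 0.0636). The brighter Gzmb probeset gave 1.33 (SE 0.32) and did not pass (0.144). The call was lost without allograft recipient QR5 (0.112), BN1 (0.145), BN3 (0.170), DA1 (0.160) or DA3 (0.113), and with the red cell covariate (1.48, 0.228).

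Other genes of this kind had positive ratios without passing. Gzma, granzyme A, had 1.59 (SE 0.37, limma adjusted p = 0.107) and passed without isograft recipient QR11 (0.0994), QR14 (0.0855) or QR16 (0.0737). It also passed with the actin covariate (1.76, 0.0372), with 0.25 array medians added (1.56, 0.0709) and under quantile normalization (1.57, 0.0976), and in 10 of the 32 alternatives in all. Klrk1, the activating receptor NKG2D, had 1.00 (0.178), Klrc1, a receptor of the NKG2 family, 2.18 (0.568) and Nkg7, a protein of cytotoxic granules, 0.71 (0.528). Of 27 cytotoxic and natural killer cell genes measured, 23 were positive and 4 negative, with a median of 0.51. At an unadjusted p under 0.05, 9 were higher and 1 lower, against 2.64% and 2.98% of all genes, and by the brightest probeset none was called, against 0.127% and 0.0844%. Ctsc, cathepsin C, which activates granzymes by cutting off a dipeptide, was called at 1.28 (SE 0.28, limma adjusted p = 0.0878), a call lost without any of 18 arrays (up to 0.237) and with the red cell (0.173) or the actin covariate (0.119).

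For T cells themselves, Cd8b was called higher among 24 marker genes (0.127% of all genes were called higher). Cd8b, the beta chain of the co-receptor of cytotoxic T cells, measured 6.49, 5.90, 5.54, 5.66 and 4.74 in allograft recipients, 7.57 to 13.3 with a median of 10.6 in isograft recipients, 4.22, 4.56 and 4.04 in untransplanted BN and 16, 17.6 and 15.4 in untransplanted DA rats. The 4 groups did not overlap. The log2 ratio was 1.07 (SE 0.23, limma adjusted p = 0.0788), and it lost the call without any of 12 arrays (up to 0.222) and with the actin covariate (0.116). Cd8a, the alpha chain, had 0.62 (0.597). The T cell list as a whole had 8 positive and 16 negative ratios with a median of −0.07. Its mean log2 level was 3.41 to 4.06 in allograft recipients and 4.10 to 4.82 in isograft recipients. It was 4.61 to 4.68 in untransplanted BN and 5.38 to 5.5 in untransplanted DA rats. Both transplanted groups thus lay below the untransplanted rats of their strain, a comparison across the processing batches. On average the cell death, mitochondrial and MHC class I lists were also lower in recipients of each strain, and the monocyte and red cell lists higher. The part of the batches in this was not tested.

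Ms4a7 and Ccl2 had large ratios with wide errors. Ms4a7, a membrane protein of macrophages, measured 4.14, 1.86, 0.0908, 3.00 and 1.86 in allograft recipients, 1.11 to 1.92 with a median of 1.48 in isograft recipients, 0.104, 0.0308 and 0.0611 in untransplanted BN and 2.34, 2.36 and 2.52 in untransplanted DA rats. A single allograft recipient, QR5, was as low as the untransplanted BN rats. On the log2 scale the ratio was 5.21 (SE 1.09, limma adjusted p = 0.0668). Without QR5 it was 6.17 (1.54e-06). The call was lost without allograft recipients QR4, QR6 or QR7 or untransplanted BN2, BN3, DA1 or DA2 (up to 0.159), and with the red cell covariate it was 4.28 (0.277). Under quantile normalization it was 4.77 and not called (0.140), and with 0.25 array medians added it was 3.18 (0.0496).

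Ccl2, which draws monocytes, was at 1.23, 0.641, 1.74, 1.27 and 1.08 in allograft recipients, 0.982 to 4.60 with a median of 2.25 in isograft recipients, 0.110, 0.357 and 0.0378 in untransplanted BN and 2.77, 2.36 and 1.97 in untransplanted DA rats. Untransplanted BN rats were the lowest of all. The log2 ratio was 3.39 (SE 0.75, limma adjusted p = 0.0872), and it was lost without any of 15 arrays (up to 0.243). With 0.25 array medians added the ratio was 1.86 (0.142), under quantile normalization 2.86 (0.199), with the red cell covariate 3.77 (0.127) and with the actin covariate 3.43 (0.109), none of which passed. Of the 36 chemokine and receptor genes, Ccl2 was the 1 called (0.127% of all genes were called higher), 22 ratios were positive and the median was 0.17.

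Il1r1, the signalling receptor of interleukin 1, was among the 7 higher calls with the highest mean in the allograft recipients. It measured 1.83, 1.92, 3.00, 1.21 and 1.73 in allograft recipients, 0.774 to 1.54 with a median of 1.26 in isograft recipients, 0.389, 0.443 and 0.332 in untransplanted BN and 0.704, 0.813 and 1.27 in untransplanted DA rats. BN was below DA in untransplanted rats and mostly above it in recipients. On the log2 scale the ratio was 1.84 (SE 0.35, limma adjusted p = 0.0406), and the call was lost without BN3 (0.143) and with the red cell covariate (1.82, 0.127). Ttc9, a tetratricopeptide repeat protein, had the same order of groups, with 1.5, 1.42, 1.54, 2.08 and 1.86 in allograft recipients, 0.767 to 1.38 with a median of 1.04 in isograft recipients, 0.537, 0.461 and 0.434 in untransplanted BN and 1.05, 0.983 and 0.788 in untransplanted DA rats. Its allograft recipients lay above every other animal, and the log2 ratio of 1.60 (SE 0.25, limma adjusted p = 0.0127) stayed called without any single array.

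Several myeloid genes with large ratios did not pass. S100a9, a subunit of calprotectin, had 3.48 (SE 0.88, limma adjusted p = 0.169) and passed without isograft recipient QR11 (0.0649) and with the actin covariate (4.05, 0.0127). The C1q chains, which start the classical complement pathway, had 3.76 (C1qa, 0.387), 4.97 (C1qb, 0.378) and 3.28 (C1qc, 0.243). Mmp14, a membrane-bound matrix protease, had 2.92 (SE 0.83, limma adjusted p = 0.245), although its allograft recipients at 2.81, 1.89, 2.03, 2.27 and 1.37 lay above the isograft recipients at 0.129 to 1.22. The complement probeset shared by Cfb and C2 of largest ratio had 1.81 (SE 0.69) and did not pass (0.465), whereas a second one was called at 1.79 (SE 0.37, limma adjusted p = 0.0658). Over 40 monocyte and macrophage genes, 23 ratios were positive, 1 was called higher (0.127% of all genes), 7 were higher and 2 lower at an unadjusted p under 0.05 (2.64% and 2.98%), and the median was 0.07. Their mean log2 level was 2.88 to 3.77 in allograft recipients, 1.99 to 2.63 in isograft recipients, 2.26 to 2.59 in untransplanted BN and 1.75 to 2.32 in untransplanted DA rats.

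Genes of other roles gave the largest higher calls. Rnf6, a RING-type E3 ubiquitin ligase, measured 0.789, 1.64, 1.40, 1.48 and 1.16 in allograft recipients, 2.05 to 3.99 with a median of 3.51 in isograft recipients, 0.0489, 0.0866 and 0.0630 in untransplanted BN and 8.19, 7.43 and 7.29 in untransplanted DA rats. The 4 groups did not overlap. The log2 difference was −6.89 in untransplanted rats and −1.34 in recipients, a 46.7-fold interaction (log2 5.55, SE 0.34, limma adjusted p = 1.09e-07). Values as low as those of untransplanted BN rats are small differences between probe signals, and with 0.25 array medians added to every value the log2 ratio was 3.46.

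Prcp, a lysosomal carboxypeptidase, had a strain difference of −5.11 in untransplanted rats and of 0.32 in recipients. It measured 2.49, 5.88, 4.58, 7.25 and 4.71 in allograft recipients, 1.84 to 6.71 with a median of 3.74 in isograft recipients, 0.113, 0.114 and 0.0979 in untransplanted BN and 2.96, 2.13 and 8.20 in untransplanted DA rats. Untransplanted BN rats alone were low. The interaction was 43.1-fold (log2 5.43, SE 0.58, limma adjusted p = 0.000368), or log2 3.79 with 0.25 array medians added. A second Prcp probeset was also called, at 2.31 (SE 0.46, limma adjusted p = 0.0490).

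The probeset of Hmgb1, a chromatin protein that acts as an alarm signal outside cells, is also assigned to a pseudogene. It measured 37.7, 39.7, 40, 35.6 and 34.0 in allograft recipients, 44.2 to 69.7 with a median of 53.5 in isograft recipients, 17.2, 20.4 and 13.1 in untransplanted BN and 107, 95.7 and 88.3 in untransplanted DA rats. The groups did not overlap, and the log2 ratio was 1.97 (SE 0.24, limma adjusted p = 0.000939). Cox15, an enzyme of heme A synthesis for cytochrome oxidase, had the same ratio of 1.97 (SE 0.33, limma adjusted p = 0.0182), with 0.43 and 0.62 at its other probesets. Rab14, an endosomal GTPase, had 1.72 (SE 0.27, limma adjusted p = 0.00978), with other probesets from −0.39 to 0.90. The calls of Rnf6, Prcp, Hmgb1, Cox15 and Rab14 held without any single array.

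Smaller or less stable higher calls were Dtnbp1 (dysbindin, 3.10, SE 0.59, limma adjusted p = 0.0408, lost without untransplanted DA1 at 0.103, 1.53 with 0.25 array medians added, second probeset 0.44), Stt3b, a catalytic subunit of the oligosaccharyltransferase (1.35, limma adjusted p = 0.0336, lost without BN3 at 0.126), Fndc5, the precursor of irisin (1.27, limma adjusted p = 0.0681), and Cdo1, cysteine dioxygenase (1.13, limma adjusted p = 0.0567). A second, brighter Stt3b probeset had a log2 ratio of 0.11 and was not called (limma adjusted p = 0.928). Fndc5 lost its call without any of 6 arrays (up to 0.170), under quantile normalization (0.103) and with the red cell covariate (0.277). Cdo1 lost it without allograft recipient QR4 or QR5 or untransplanted BN1, BN3 or DA3 (up to 0.154).

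Among the named genes called lower, 4 were not called between the untransplanted strains and had every allograft recipient below every other animal. Stmp1, also called lower without a strain call, had mean log2 levels of 1.36 in allograft recipients and 2.45 to 2.70 in the other groups. Its log2 ratio was −0.93 (SE 0.21, limma adjusted p = 0.0970). The call for Stmp1 was lost without any of 17 arrays, and its other probeset was not called. Jakmip1, which binds Janus kinases and microtubules, measured 0.203, 0.133, 0.194, 0.322 and 0.146 in allograft recipients. It measured 0.798 to 1.46 with a median of 1.07 in isograft recipients, 0.902, 0.967 and 1.22 in untransplanted BN and 0.969, 0.922 and 0.989 in untransplanted DA rats. Every allograft recipient lay below every other animal. The log2 difference of BN minus DA was 0.09 in untransplanted rats and −2.53 in recipients (ratio −2.62, SE 0.33, limma adjusted p = 0.00166). With 0.25 array medians added the ratio was −1.68 and still called, and the other Jakmip1 probeset had −0.21 (limma adjusted p = 0.896).

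Phf1, an accessory protein of Polycomb repressive complexes, had 0.860, 0.817, 0.524, 0.867 and 1.09 in allograft recipients against 3.01 to 8.08 with a median of 3.55 in isograft recipients. Untransplanted BN rats had 7.73, 5.23 and 7.37, and untransplanted DA rats 4.68, 6.56 and 5.44. The allograft recipients again lay below all others (log2 ratio −2.64, SE 0.41, limma adjusted p = 0.00978). Gigyf1, which binds the adaptor GRB10, had 0.181, 0.146, 0.203, 0.345 and 0.106 in allograft recipients, 0.725 to 2.42 with a median of 1.56 in isograft recipients, 3.67, 2.15 and 6.01 in untransplanted BN and 3.52, 2.97 and 2.05 in untransplanted DA rats. Its log2 ratio was −3.36 (SE 0.57, limma adjusted p = 0.0189), or −2.31 with 0.25 array medians added, and a second probeset had −0.51 (0.781).

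Mpped2, a metallophosphoesterase, was near the bottom of the signal range in allograft recipients, at 0.0493, 0.0542, 0.0478, 0.0426 and 0.0437. The isograft recipients ranged from 0.258 to 1.02 with a median of 0.536, untransplanted BN rats had 0.468, 0.851 and 0.585, and untransplanted DA rats 1.15, 1.04 and 0.431. No allograft recipient reached the range of any other group. The log2 ratio was −3.11 (SE 0.50, limma adjusted p = 0.0133), but with 0.25 array medians added it was −1.12 and did not pass (0.272). The calls of Jakmip1, Phf1, Gigyf1 and Mpped2 held without any single array. Over all probesets past the criterion, the 5 allograft recipients lay below all 15 other arrays for 544 (3.12%) and above them for 249 (1.43%), and 7 and 3 of these were interaction calls.

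Lower calls with high values in the isograft recipients included genes of red cells. Tmcc2, a coiled-coil protein abundant in maturing red cells, measured 4.06, 7.30, 9.50, 4.37 and 3.64 in allograft recipients, 26.7 to 117 with a median of 77.7 in isograft recipients, 3.20, 4.33 and 4.13 in untransplanted BN and 3.49, 5.51 and 3.26 in untransplanted DA rats. The isograft recipients lay above every other animal. On the log2 scale the ratio was −3.40, a 10.5-fold difference (SE 0.62, limma adjusted p = 0.0321). Bpgm, which makes the 2,3-bisphosphoglycerate that loosens oxygen from hemoglobin, had 8.22, 14.1, 17.8, 10.9 and 9.41 in allograft recipients, 20 to 85.2 with a median of 62.1 in isograft recipients, 7.15, 9.52 and 9.55 in untransplanted BN and 8.02, 9.16 and 7.83 in untransplanted DA rats. Its isograft recipients too lay above every other animal, but the ratio of −1.94 (SE 0.62) did not pass (limma adjusted p = 0.336).

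The probeset shared by Lgals9 and Lgals5, galectins of which the latter is known from rat reticulocytes, had 8.07, 11.1, 15.3, 7.51 and 6.63 in allograft recipients, 23.6 to 109 with a median of 70.3 in isograft recipients, 12.1, 12.7 and 13.9 in untransplanted BN and 9.50, 11 and 8.28 in untransplanted DA rats. Isograft recipients again lay above all others (log2 ratio −2.92, SE 0.63, limma adjusted p = 0.0771). The call was lost without any of 13 arrays (up to 0.195). Prss3, of the trypsin family, had a similar order at much lower signal, with 0.221, 0.118, 0.215, 0.0803 and 0.159 in allograft recipients, 0.820 to 5.06 with a median of 2.23 in isograft recipients, 0.109, 0.285 and 0.270 in untransplanted BN and 0.181, 0.329 and 0.193 in untransplanted DA rats. Its log2 ratio was −3.56 (SE 0.75, limma adjusted p = 0.0698), lost without any of 7 arrays (up to 0.195), and with 0.25 array medians added it was −2.42 (0.0801). Slc43a1, an amino acid transporter, had −1.87 (SE 0.36, limma adjusted p = 0.0408), lost without BN3 (0.145) or DA1 (0.116) and with the red cell covariate (0.108). Unlike the genes above, it was highest in untransplanted BN rats, with a median of 6.77. The median was 5.55 in isograft recipients, 3.45 in untransplanted DA rats and 2.70 in allograft recipients.

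The whole list of 37 red cell and heme synthesis genes had 30 negative and 7 positive ratios and a median of −0.63. Tmcc2 was its 1 call (0.0844% of all genes were called lower), and 10 genes were lower and none higher at an unadjusted p under 0.05, against 2.98% and 2.64% of all genes. Ahsp, the chaperone of alpha-globin, had −4.30 (limma adjusted p = 0.395), Slc4a1, the anion exchanger band 3, −2.55 (0.474), Kel, the Kell blood group protein, −2.40 (0.386) and Fech, the last enzyme of heme synthesis, −1.97, none of them passing. Selenbp1, a selenium-binding protein, had −2.66 (0.294), Tfdp2, a partner of E2F factors, −3.15 (0.177), and Hbb, a beta-globin, −0.04 (0.994). The list's mean log2 level was 1.24 to 2.18 in allograft recipients, 2.15 to 3.64 in isograft recipients, 0.62 to 1.15 in untransplanted BN and 1.10 to 1.59 in untransplanted DA rats. This level was also used as a covariate, an alternative added after the data were seen and built on a list that holds Tmcc2. With it the list's median was −0.02. The covariate is the mean of these same genes, so that shift was fixed by construction and is no result. Tmcc2 had −2.14 (0.000239) with this covariate and Lgals9 and Lgals5 −1.65 (0.0111), while Prss3 had −2.64 and was not called (0.277). In all, 41 probesets were called, 34 of them among the 63.

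**Figure D3:**
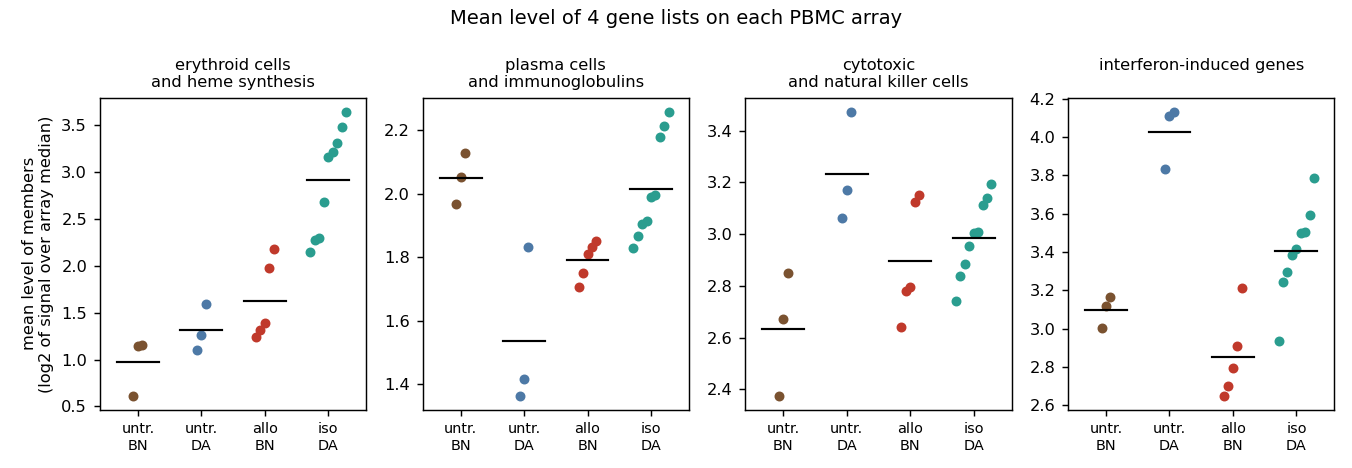
Mean log2 level of the measured genes of 4 lists on each of the 20 arrays, by group, with a line at the group mean. Red cell genes are highest in the isograft recipients (2.15 to 3.64), interferon-induced genes are highest in untransplanted DA rats (3.84 to 4.13), and on average cytotoxic cell genes are highest and plasma cell genes lowest in untransplanted DA rats.

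The GATA motif AGATAA, bound by the red cell factor GATA1 among others, was in 11.3% of the 27457 promoter windows, in 27.8% of the red cell list (10 of 36), in 21.4% of genes called lower (3 of 14) and in 1 of 20 called higher. Among genes called lower, the windows of Art4, Icam5 and LOC100911253 held it. Art4, the carrier of the Dombrock blood group in humans, was called lower at −0.99 (limma adjusted p = 0.0749), a call lost without any of 11 arrays. Unlike Tmcc2, it was lowest in isograft recipients, with a mean log2 level of 1.22. The mean was 1.57 in allograft recipients, 3.18 in untransplanted BN and 1.84 in untransplanted DA rats. Its window, from chr4:171481819-171482118 on the minus strand, holds 1 copy, in capitals, at −201 relative to the start.
Art4: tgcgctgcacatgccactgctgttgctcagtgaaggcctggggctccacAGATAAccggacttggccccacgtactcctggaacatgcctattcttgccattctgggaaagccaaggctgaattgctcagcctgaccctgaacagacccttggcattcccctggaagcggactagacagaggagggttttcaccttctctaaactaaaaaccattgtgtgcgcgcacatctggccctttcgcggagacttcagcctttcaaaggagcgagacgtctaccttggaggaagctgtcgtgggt
As with the interferon motif, this describes the letters only.

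Among plasma cell genes, Jchain was called lower. Jchain, which joins the units of IgA and IgM, measured 9.64, 9.31, 5.16, 6.48 and 6.47 in allograft recipients, 8.78 to 27.4 with a median of 15 in isograft recipients, 11.9, 14.4 and 16.9 in untransplanted BN and 9.04, 6.44 and 6.95 in untransplanted DA rats. BN was above DA in untransplanted rats without overlap, and in recipients BN was mostly below DA. The log2 ratio was −2.11 (SE 0.40, limma adjusted p = 0.0392), lost without BN3 (0.140), and with the red cell covariate it was −1.76 (0.182). A second probeset had −1.95 and did not pass (0.106). Of the 10 plasma cell genes measured, 9 were negative, with a median of −0.55, and 3 were lower at an unadjusted p under 0.05 (2.98% of all genes). With the red cell covariate that median was −0.26. Mzb1, a chaperone of immunoglobulin secretion, had −1.26 (0.127) and Tnfrsf17, the receptor BCMA, −1.62 (0.387). The 16 B cell genes had a median of 0.03 with no call. At an unadjusted p under 0.05, 1 was higher and 1 lower (2.64% and 2.98% of all genes).

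A further kind of lower call rested on low values in untransplanted DA rats. Prss32, a serine protease, measured 1.16, 0.775, 0.979, 1.28 and 1.05 in allograft recipients, 0.721 to 1.13 with a median of 0.968 in isograft recipients, 0.563, 0.479 and 0.897 in untransplanted BN and 0.175, 0.0521 and 0.129 in untransplanted DA rats. Untransplanted DA rats were below every other animal, and the recipients overlapped. The log2 difference was 2.56 in untransplanted rats and 0.15 in recipients (ratio −2.41, SE 0.42, limma adjusted p = 0.0192). With 0.25 array medians added the ratio was −1.15 (0.0508). LOC100911253, a gene without a name here, was called at 2 probesets, −1.76 (0.0189) and −1.44 (0.0752). Icam5, an adhesion molecule, had −1.51 (limma adjusted p = 0.0752) and Nav2, a neuron navigator protein, −1.43 (0.0702), each lost without any of 9 arrays (up to 0.248 and 0.162), under quantile normalization (0.150 and 0.140), with the red cell covariate (0.188 and 0.221) and with the actin covariate (0.109 and 0.105), and Icam5 also with 0.25 array medians added (0.105). Sik1, a salt-inducible kinase, had −2.54 and did not pass (0.331).

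**Figure D4:**
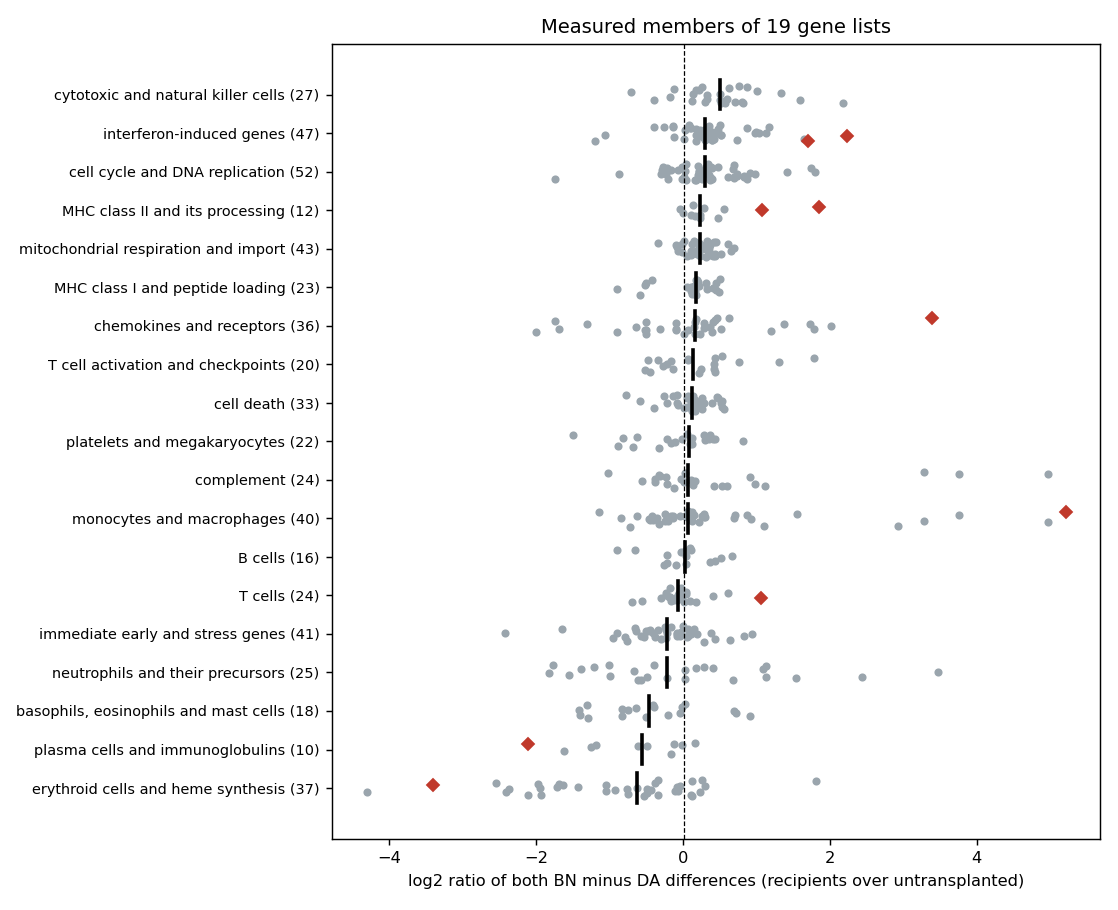
Log2 interaction ratio of every measured gene in 19 lists, with the number measured in brackets, a black bar at each list's median, red diamonds for called genes and a dashed line at the median of all genes (0.01). The red cell list reaches furthest down, with a median of −0.63, and the cytotoxic and natural killer cell list has the highest median, 0.51.

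The remaining lists held no call, as the plot of list members shows. At an unadjusted p under 0.05, the level used for the next 3 lists, 2.64% of all genes were higher and 2.98% lower. Cell cycle genes had 40 positive of 52, a median of 0.30, and 7 higher and none lower at an unadjusted p under 0.05. Mitochondrial respiration and import genes had 37 positive of 43, a median of 0.23, and 4 higher and none lower. Immediate early and stress genes had 27 negative of 41, a median of −0.21, and 1 higher and 4 lower. The medians were 0.14 for T cell activation genes (20), 0.12 for cell death genes (33), 0.08 for platelet genes (22), 0.07 for complement (24), −0.22 for neutrophil genes (25) and −0.46 for basophil, eosinophil and mast cell genes (18), of which 4 passed the signal criterion.

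Of 30 genes that the study had itself selected on these arrays, 25 had a probeset past the signal criterion. By the probeset of largest ratio, 11 were called higher, 2 lower and 12 not called, and 22 passed the unadjusted p of 0.01 with a ratio of 3. As they were chosen on the same arrays, this is no independent evidence of their direction. Med30 had −0.15 (0.935) and Timm9 −0.34 (0.805), and no probeset annotated to Prss1 or Unc5c passed the criterion. Candidates were matched by gene ID, so one whose probeset is now annotated to another gene is missed in these counts, and the trypsin family probeset described above as Prss3 was called lower. Igh-1a and Rnase2 were not analysed here.

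Of the called probesets, 20 of the higher and 10 of the lower ones are also on the array used for hearts. There allografts and isografts, both of DA origin, can be set beside the blood values. Recipients were BN for allografts and DA for isografts, so blood cells inside the grafts differed in strain. The study names as a limit that some graft differences may come from recipient lymphocytes in the allograft. Of all heart probesets past the signal criterion, 59.2% were called there in either direction. Of the 20, 19 passed that criterion, and 8 of these were higher and 4 lower in allografts. Of the 10, 7 passed it, and 2 of these were higher and 4 lower. At 3-fold, against 6.67% higher and 8.83% lower of all, 4 and 1 of the 19 and 1 and 2 of the 7 passed. Ctsc was 8.65-fold (limma adjusted p = 4.89e-07), Cd8b 4.04-fold (0.00954), Ccl2 3.39-fold (1.10e-05), RT1-Ba 3.03-fold (0.00130) and Ctsl 2.51-fold higher in allografts. The second called RT1-Ba probeset differed by 1.19-fold and did not pass (0.705). Dusp6, a phosphatase of ERK that was called lower in blood at −1.20, was 7.33-fold higher in allografts. Fndc5 was 4.28-fold, Tmcc2 3.96-fold and Phf1 3.77-fold lower in allografts. Oas1a and Ifitm3 differed by 1.06-fold and 1.08-fold and did not pass. The difference between tissues was not tested.

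**Figure D5:**
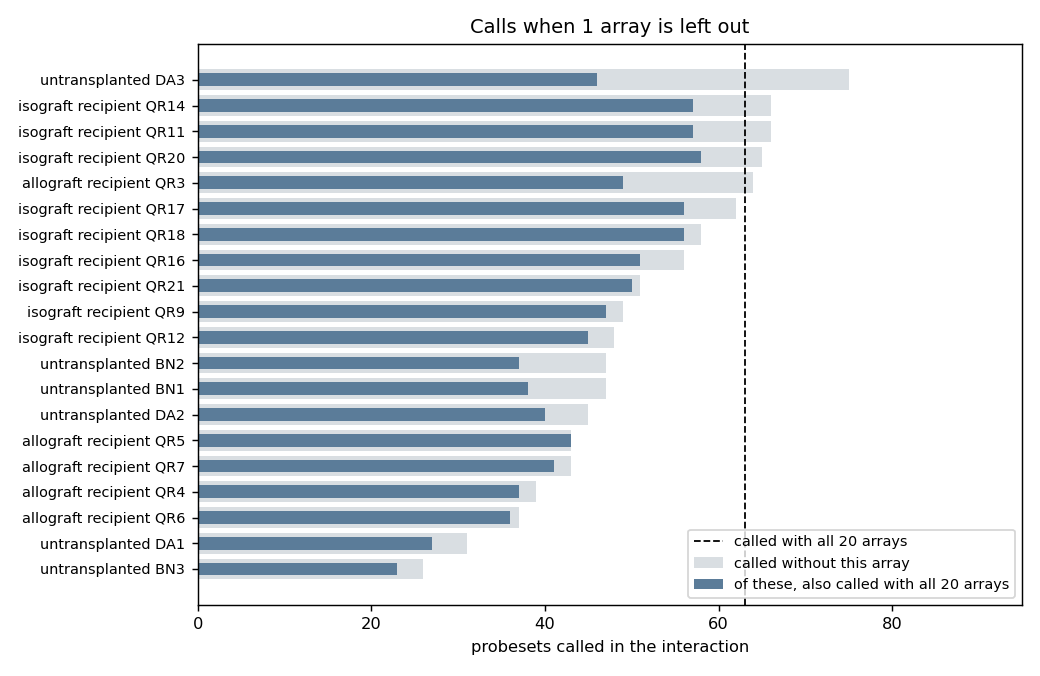
Number of interaction calls, both directions together, when each of the 20 arrays is left out in turn. The narrower bars count those also called with all 20 arrays, and the dashed line marks the count over all arrays, 63. The count is lowest without untransplanted BN3 (26) and DA1 (31) and highest without DA3 (75).

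The number of calls depended on single arrays, as the plot of counts by array left out shows. It ranged from 26 without untransplanted BN3 to 75 without DA3, and was 31 without DA1, 37 without allograft recipient QR6 and 39 without QR4. All 63 ratios kept their sign in every one of the 20 repeats, and 21 calls, 12 higher and 9 lower, passed in each. These included Rnf6, Prcp, Oas1a, Mx2, Hmgb1, Cox15, Rab14, Ttc9, Ncoa3 and Scamp1 among the higher and Jakmip1, Phf1, Gigyf1, Mpped2, Tmcc2, Prss32 and LOC100911253 among the lower. The other 42 lost their call without at least 1 array, Ifitm3, Gzmb, Il1r1 and Jchain among them.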

How the data were processed

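Total RNA of PBMC was amplified and hybridised to Affymetrix RAE230 2.0 arrays, 1 per rat, and that of hearts to RAE230A arrays. The deposited values are MAS5 signal intensity per probeset, which the authors brought to a common trimmed mean of 100 per array (2% cut at both ends). Values without detection calls were used here, so a signal criterion stood in for them. Each array was divided by its median and log2 was taken. limma 3.58.1 in R 4.3.3 fitted 1 mean per group (lmFit, eBayes), and p-values, two-sided, were adjusted over all probesets that are not controls. For precision, the number of arrays is the limit, and p-values measure the spread between rats.

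Probesets were named through the platform annotation: 20826 of 31042 have 1 symbol (20758 matched to GRCr8), 436 several and 9780 none, and a probeset with several is printed with all of them. Called genes were named by size, as the 12 largest and 12 smallest ratios, the 6 at each end without a strain call, up to 4 per gene list, and the study's own candidates. Lists used the brightest probeset per gene. The members and lists were chosen with earlier results of these data known. On no pair of arrays were values identical, and the highest correlation within a group was 0.979. Replicate numbers shared between the untransplanted groups and others did not pair samples. Batches are those the study's methods name, and dates were not used. Alternatives were quantile normalization, unscaled values, an added 0.25 array medians, another or no signal criterion, other variance settings, leaving out each array, and 2 covariates chosen after seeing the data. The script was tested on simulated data. Sequences are from RefSeq.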

Additional observations from a re-analysis of the deposited data

Results flagged for a closer look

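The strain difference differed between recipients and untransplanted rats for 63 probesets by the interaction test itself, as described above. Among the 94 gene and group combinations of 4 to 10 arrays examined for a single array far from the rest, 6 stood out, and chance alone marks about 1 in 20.

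Allograft recipient QR5 had 0.0908 array medians for Ms4a7, against 1.86 to 4.14 in the other 4, and without it the log2 ratio was 6.17 (limma adjusted p = 1.54e-06). The same animal had 111 for S100a9, against 26.6 to 32.7, and without it the ratio was 3.09 (0.220). Allograft recipient QR3 had 0.249 for Dtnbp1, against 0.739 to 0.919, and 5.62 for Sik1, against 3.87 to 4.03, with ratios of 3.44 (0.0103) and −2.64 (0.321) without it. Isograft recipient QR16 had 0.619 for Sppl2a, against 0.967 to 1.19, and the ratio without it was 1.97 (0.0737). Isograft recipient QR20 had 31.0 for the probeset shared by Cfb and C2, against 3.49 to 9.76, and that probeset, not called over all arrays, had 2.08 (0.0839) without it.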

How the results depend on the processing

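All 63 called ratios kept their sign under every alternative run. The calls numbered 77 under quantile normalization (45 shared), 87 unscaled (55), 75 with 0.25 array medians added (58), 44 with the signal criterion at the 65th percentile (44), 108 without that criterion, 70 with adjustment over probesets past it, 81 with a trended and robust variance (61), 140 with array weights (63, of which 50.0% higher against 61.9%), 61 without moderation (52) and 41 with the red cell covariate (34), the last chosen after seeing the data. Higher calls were 66 without the criterion and 70 with weights. Lower calls were 38 unscaled, 15 at the 65th percentile, 42 without the criterion, 70 with weights and 15 with the red cell covariate. Calls of 3-fold were 22 at the 65th percentile (12 higher, 10 lower) and 81 without the criterion (48 and 33), with 27 lower under weights. The unadjusted rule gave 56 with 0.25 added, 52 at the 65th percentile and 387 without the criterion. Strain calls were 199 and 808 in untransplanted rats under the last 2 settings, and in recipients 205 with 0.25 added and 597 without the criterion. By construction, the 65th percentile and no-criterion settings change which probesets can be called. Adjustment over probesets past the criterion changes how many the adjustment covers. For the other settings the cause was not tested.

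Leaving out each array gave 26 to 75 calls (15 to 44 higher, 10 to 31 lower), 21 to 48 at 3-fold (10 to 26 higher, 10 to 22 lower), 81 to 112 by the unadjusted rule, and 313 to 368 and 317 to 340 strain calls in untransplanted rats and recipients. Numbers shared between groups gave correlations of 0.02, 0.06 and 0.15 of their deviations and do not pair rats. A replicate block gave 51 calls, 46 shared. The untransplanted groups hold 3 rats each, and among the named calls the ratios of Rnf6, Prcp, Ms4a7, Ccl2, Dtnbp1, Prss3, Prss32, Jakmip1, Gigyf1 and Mpped2 moved by over 1.5-fold with 0.25 array medians added.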

Other observations

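Several genes stood high in allograft recipients without an interaction call. Arg1, the arginine-degrading enzyme of some myeloid cells, had a log2 difference of 2.25 between recipients and an interaction ratio of 1.54 (limma adjusted p = 0.618). Il1rn, the antagonist of the interleukin 1 receptor, had 3.06 and 1.78 (0.791), and S100a8, the partner of S100a9, 1.96 and 1.13 (0.718). Dab2, an endocytic adaptor of macrophages, had a ratio of 1.60 (0.312). In these 4 genes all 5 allograft recipients lay above all 15 other arrays, as they did for 249 probesets past the signal criterion (1.43%).

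Among called probesets without a gene name, the most extreme log2 ratios were −4.22 on the lower side and 3.48 and 3.30 on the higher side.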
